A study of Mus musculus with 30 samples.

Results

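The metallothionein genes Mt1, Mt2 and Mt3 and the gene of their metal-sensing transcription factor, Mtf1, were followed across 6 groups of mice in RNA sequencing of the hippocampus. These 4 genes were taken by name, through the Ensembl identifiers of the deposited table, out of 21412 genes. Mt4 was not analysed here. The mice were male BALB/c, a common inbred strain, and arrived at an age of 2 to 3 weeks. After 5 days of acclimatization they ate the experimental feed for 11 weeks. These details follow the study's methods, which describe the Ctr, LD and HD groups only. Control mice (Ctr) had feed without added methylmercury, low dose mice (LD) had 0.28 mg and high dose mice (HD) 5 mg methylmercury per kg feed, with the metal supplied bound to cysteine and cysteine also added to the control feed. Se_Ctr, Se_LD and Se_HD carry the same labels together with selenium, which the series title names as selenium-methionine. The amount of selenium and the mercury content of those feeds are not given in the sources used here. Each group had 5 sequenced mice, 1 library per mouse, so the p-values below refer to the spread between mice.

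Metallothioneins are small, cysteine-rich proteins that bind zinc and copper and, through the same thiol groups, toxic metals such as cadmium and mercury. Mt1 and Mt2 are induced in many tissues by metals, glucocorticoids, oxidative stress and inflammatory cytokines, and in brain they are known mainly from astrocytes. Mt3 is the brain-enriched member and responds little to metals. MTF1 is a zinc finger protein that senses zinc and switches on metallothionein genes through short metal response elements in their promoters.

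The sequences in front of the 3 metallothionein genes are shown because metal response elements in such promoters are where MTF1 is known to act. Mt3, Mt2 and Mt1 lie side by side on the plus strand of chromosome 8 (NCBIM37), at chr8:96676507-96678048, chr8:96696518-96697467 and chr8:96702989-96704225, within 27719 bases. Mtf1 lies at chr4:124479348-124527044. The metal response element was searched by its core, TGCACNC or TGCGCNC, on both strands, in the 250 bases before each start in the RefSeq promoter table (GRCm38.p6). Each of the 4 windows matched NCBIM37 exactly once, and capitals mark the cores.
Mt2, chr8:96696268-96696517: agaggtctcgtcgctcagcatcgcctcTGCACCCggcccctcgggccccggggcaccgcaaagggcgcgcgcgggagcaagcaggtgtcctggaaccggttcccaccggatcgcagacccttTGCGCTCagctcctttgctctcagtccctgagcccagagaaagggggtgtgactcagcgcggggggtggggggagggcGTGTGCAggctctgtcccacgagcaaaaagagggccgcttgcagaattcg
Mt1, chr8:96702739-96702988: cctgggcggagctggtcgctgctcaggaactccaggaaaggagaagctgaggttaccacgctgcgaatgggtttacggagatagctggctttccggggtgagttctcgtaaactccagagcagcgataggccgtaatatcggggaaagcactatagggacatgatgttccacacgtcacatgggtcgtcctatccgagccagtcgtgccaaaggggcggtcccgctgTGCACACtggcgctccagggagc
Mt3, chr8:96676257-96676506: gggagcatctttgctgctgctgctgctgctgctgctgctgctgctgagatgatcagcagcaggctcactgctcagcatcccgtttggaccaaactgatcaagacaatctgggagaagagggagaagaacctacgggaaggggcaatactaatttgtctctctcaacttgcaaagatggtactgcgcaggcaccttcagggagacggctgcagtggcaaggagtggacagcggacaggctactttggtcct

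The Mt2 window held 3 cores, at -223, -128 and -50 counted back from the start, the last of them on the minus strand. Of the 32851 mouse promoter windows in the table, 1.26% held at least 3 cores and 21.4% at least 1. The Mt1 window held 1 core, at -23, and the windows of Mt3 and Mtf1 held 0. Mt2 also held 1 core of the antioxidant response element (TGACNNNGC, as TGACTCAGC at -79), a sequence bound by NRF2, which stood in 10.2% of windows. No member held the E-box CACGTG, present in 6.02% of windows. None of the motifs found overlapped another. The annotation gives Mt1 a further transcript start 122 bases downstream, and 5 cores lay in the 250 bases before that start. A stretch of 30 bases that holds 2 of them is printed, again with the cores in capitals, and 2 more lie within 30 bases of each other nearer that start.
Mt1, chr8:96702986-96703015: agctcTGCACTCcgcccgaaaagTGCGCTC
Over 500 bases centred on the annotated gene start, Mt2 held 7 cores, Mt1 5, Mt3 3 and Mtf1 0. Of 21325 genes given the same window, 0.0563% held as many as Mt2, 0.657% as many as Mt1 and 6.69% as many as Mt3. These matches describe letters, not occupied sites.

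Libraries held 5768208 to 11510521 reads on genes, with group medians from 7119788 in Ctr to 10159514 in HD. Normalized counts are the authors' counts divided by a size factor per library. Mt1 rested on 495 to 2570 reads per library, Mt2 on 358 to 3204, Mt3 on 976 to 2750 and Mtf1 on 169 to 534. The counting error alone was therefore 5.29% of the Mt2 value in the shallowest case and 7.69% of the Mtf1 value. No stretch of 75 bases, the read length, was shared between a member and another protein-coding transcript. Mtf1 overlaps 2 other annotated genes, n-R5s192 and 1110065P20Rik, and reads there cannot be assigned with certainty because the strand setting of the counting is not given in the sources used here. Neuron markers summed to between 80063 normalized counts, in HD library 21, and 136421, in a Se_Ctr library. The oligodendrocyte markers also had their lowest sum, 30280, in HD library 21. None of the 12 hippocampal subfield markers was at 0 throughout a group.

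Per kilobase of exon, Mt3 was the most abundant member, with a mean of 3386 ± 649 normalized counts per kb in Ctr (SD, n = 5). Mt1 followed at 1363 ± 171 and Mt2 at 1264 ± 234 in the same mice, and Mtf1 stood at 38.1 ± 5.26. By mean level per kilobase over all 30 libraries, Mt3 ranked 54, Mt2 172, Mt1 178 and Mtf1 8266 among 21326 genes. The close ranks of Mt2 and Mt1 pool groups in unlike order. Mt1 had the higher mean per kilobase in each group except HD, where it stood at 2070 against 2522 for Mt2 (1913 against 1976 without HD library 21).

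**Figure D1:**
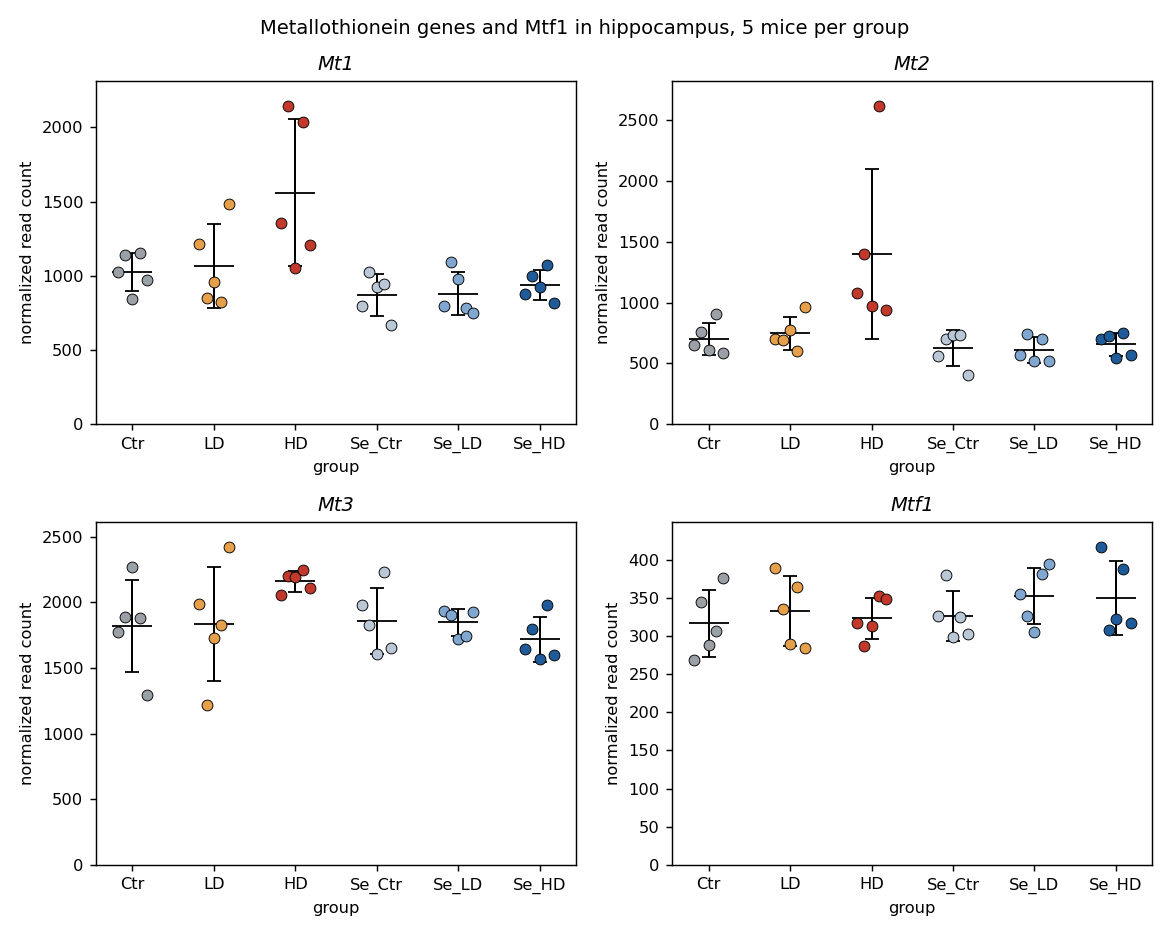
Normalized read count (vertical axis, linear from 0) of Mt1, Mt2, Mt3 and Mtf1 by group; each point is 1 mouse, and bars give the mean and SD of 5 mice. The 5 HD mice lie between 940 and 2615 for Mt2, above the highest Ctr mouse at 903, whereas the groups overlap for Mtf1.

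The first question was whether methylmercury in feed without selenium changed these genes. A gene passed if 2 unadjusted p-values were below 0.05, that of an F test across Ctr, LD and HD and that of the planned contrast, which is the order of tests in the study's methods. Benjamini-Hochberg adjusted p-values over all tested genes are given beside it. Both came from limma on log2(normalized count + 1), and log2 differences are on that scale. Between HD and Ctr, 2 of the 4 members passed, both higher, where 3.36% of 20031 tested genes passed as higher and 5.09% in either direction. Mt2 rose 1.86-fold and Mt1 1.47-fold, while Mt3 and Mtf1 did not pass.

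For Mt2, the zinc- and mercury-binding form with the most response element cores above, the Ctr mice had normalized counts of 651, 761, 609, 903 and 589. The HD mice had 1082, 1398, 975, 2615 and 940. Every HD mouse lay above every Ctr mouse, a separation found upward in 0.978% of tested genes. The mean was 703 ± 130 in Ctr and 1402 ± 702 in HD (SD, n = 5 each). The log2 difference was 0.90 ± 0.21 (SE; 95% interval 0.46 to 1.33), with a limma p of 0.000338 and an adjusted p of 0.109. The exact two-sided permutation test gave 0.00794, the smallest value that 5 against 5 mice allow. An adjusted p below 0.05 was reached by 0.130% of tested genes in this comparison and not by Mt2, whose adjusted p was 0.0172 in one fit of all 30 libraries and 0.00409 with DESeq2. HD library 21 held the most Mt2, and without it the log2 difference was 0.65 (limma adjusted p = 0.128), and Mt2 still passed.

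Mt1, the neighbouring gene with a closely related product, had normalized counts of 1023, 1141, 842, 1154 and 972 in Ctr. The HD mice had 1357, 2141, 1054, 2034 and 1208. The HD mice other than library 15 lay above every Ctr mouse, so the groups overlapped. The mean was 1026 ± 129 in Ctr and 1559 ± 496 in HD (SD, n = 5 each). The log2 difference was 0.55 ± 0.18 (SE; 95% interval 0.17 to 0.94), with a limma p of 0.00689, an adjusted p of 0.304 and an exact permutation p of 0.0317. The call rested on library 9. Without it the log2 difference was 0.43 and the F test over 3 groups gave a limma p of 0.0557.

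Mt3, the brain-enriched form that restrains neurite growth in culture, had normalized counts of 1774, 1886, 2270, 1883 and 1296 in Ctr. The HD mice had 2053, 2202, 2194, 2244 and 2107, a narrow band that lay above 4 of the 5 Ctr mice. The means were 1822 ± 349 and 2160 ± 77.8 (SD, n = 5 each). The log2 difference was 0.27 ± 0.15 (SE; 95% interval -0.04 to 0.58), with a limma p of 0.0870, and Mt3 did not pass. The exact permutation test on the same values gave 0.0476.

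Mtf1, which encodes the metal-sensing activator of the other genes, had normalized counts of 268, 344, 288, 307 and 376 in Ctr. The HD mice had 317, 287, 313, 352 and 348, within the Ctr range. The log2 difference was 0.04 ± 0.12 (SE; 95% interval -0.20 to 0.28; exact permutation p = 0.698, n = 5 each). The interval bounds any change of the Mtf1 transcript but does not bear on the protein, whose activity is known to be set by zinc binding.

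At the low dose none of the 4 members passed against Ctr, where 1.46% of tested genes did. The LD mice had Mt2 counts of 698, 696, 771, 603 and 966 and Mt1 counts of 1217, 847, 959, 823 and 1484. Both ranges overlapped Ctr, and the highest values of both genes came from library 26. The log2 difference from Ctr was 0.09 for Mt2 (95% interval -0.35 to 0.52), 0.03 for Mt1 (-0.36 to 0.41), -0.00 for Mt3 (-0.31 to 0.31) and 0.07 for Mtf1 (-0.17 to 0.31). Without library 26 the difference was -0.01 for Mt2 and -0.10 for Mt1.

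Setting the high against the low dose, 2 of the 4 members passed, both higher in HD, where 3.04% of tested genes passed as higher and 4.49% in either direction. This comparison shares its HD mice with the one against Ctr and is given beside it, not as separate evidence. Mt2 was higher by 0.81 ± 0.21 on the log2 scale (SE; limma p = 0.000916, adjusted p = 0.166; exact permutation p = 0.0159, n = 5 each). Mt1 was higher by 0.53 ± 0.18 (limma p = 0.00952, adjusted p = 0.478), but the exact permutation test gave 0.0873. Without HD library 9 the Mt1 difference from LD was 0.40 and it no longer passed. Mt3 differed by 0.27 (exact permutation p = 0.111) and did not pass. With library 26 left out it differed by 0.38 and did. Mtf1 differed by -0.03 (95% interval -0.28 to 0.21).

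**Figure D2:**
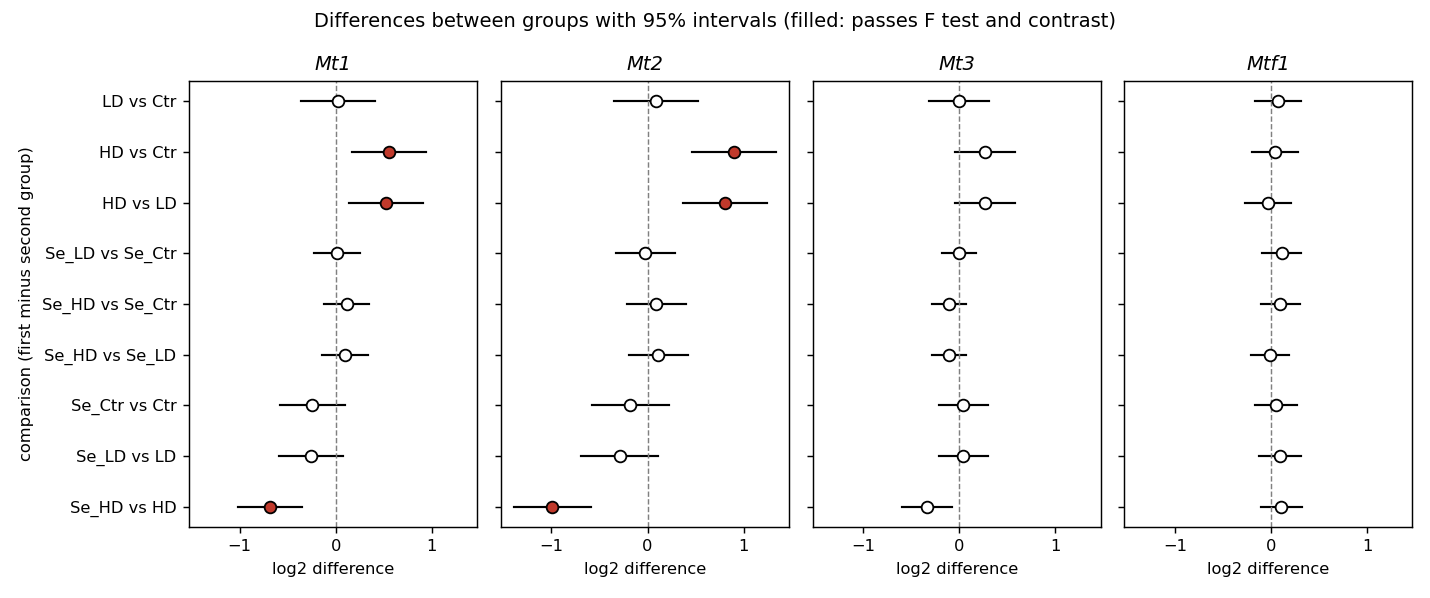
Log2 differences (horizontal axis, first minus second group) of the 4 genes in 9 comparisons, with 95% intervals from limma; filled points passed the F test and the contrast. Filled points stand at HD against Ctr (0.90 for Mt2, 0.55 for Mt1), HD against LD and Se_HD against HD, and none of the 12 points within the selenium feeds is filled.

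In the selenium feeds none of the 4 members passed in any comparison of methylmercury doses. Of all genes tested, 1.46% passed between Se_LD and Se_Ctr, 2.06% between Se_HD and Se_Ctr and 2.47% between Se_HD and Se_LD. The first of these shares rested on 288 genes, which became 553 without Se_LD library 17 and 436 without Se_Ctr library 28. Mt2 counts were 559, 704, 736, 737 and 401 in Se_Ctr, and 569, 739, 519, 703 and 517 in Se_LD. In Se_HD they were 703, 723, 542, 748 and 566. The highest Se_HD mouse, at 748, stood close to the highest Se_Ctr mouse, at 737, and the 3 groups overlapped throughout. The log2 difference between Se_HD and Se_Ctr was 0.09 ± 0.15 (SE; 95% interval -0.22 to 0.40; exact permutation p = 0.706). Mt1 counts were 795, 1026, 923, 945 and 669 in Se_Ctr and 874, 997, 925, 1075 and 815 in Se_HD. Mt1 thus differed by 0.11 ± 0.11 (SE; 95% interval -0.12 to 0.35; exact permutation p = 0.437). Mt3 differed by -0.11 (95% interval -0.28 to 0.07) and Mtf1 by 0.10 (-0.10 to 0.30).

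Comparing the feeds at equal labels of methylmercury, Mt1 and Mt2 fell in Se_HD relative to HD, where 2.62% of 21383 tested genes passed as lower and 3.59% in either direction. Mt2 was 656 ± 95.3 normalized counts in Se_HD against 1402 ± 702 in HD (SD, n = 5 each), and every Se_HD mouse lay below every HD mouse. Such a separation downward was found in 0.903% of tested genes. The log2 difference was -0.99 ± 0.20 (SE; 95% interval -1.39 to -0.59), with a limma p of 1.65e-05, an adjusted p of 0.0160 and an exact permutation p of 0.00794. An adjusted p below 0.05 with a lower value in Se_HD was reached by 0.318% of tested genes. It was not kept by Mt2 without HD library 21 (log2 difference -0.74, adjusted p = 0.0785), without HD library 9 (adjusted p = 0.0695) or without Se_HD library 18 (adjusted p = 0.0570), nor in limma without a trend (adjusted p = 0.0626) or in a fit of these 2 groups alone (adjusted p = 0.222).

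Mt1 was 937 ± 102 in Se_HD against 1559 ± 496 in HD, a log2 difference of -0.68 ± 0.16 (SE; 95% interval -1.02 to -0.35; limma p = 0.000228, adjusted p = 0.0618; exact permutation p = 0.0159). The ranges overlapped only through HD library 15, at 1054, and Se_HD library 24, at 1075. For Mt3 every Se_HD mouse, from 1569 to 1977, lay below every HD mouse, from 2053 to 2244. The log2 difference was -0.34 ± 0.13 (SE; limma p = 0.0127, adjusted p = 0.411; exact permutation p = 0.00794). The F test over 6 groups gave 0.176 for Mt3 in limma, so it did not pass the 2-step rule. Mtf1 was at 350 ± 48.6 in Se_HD and 323 ± 26.9 in HD (log2 difference 0.11, 95% interval -0.11 to 0.33).

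Between Ctr or LD and the matching selenium group none of the members passed, where 1.30% of tested genes passed between Se_Ctr and Ctr and 0.730% between Se_LD and LD. Mt1 differed by -0.24 between Se_Ctr and Ctr (95% interval -0.58 to 0.09; exact permutation p = 0.111) and Mt2 by -0.18 (-0.58 to 0.22; exact permutation p = 0.429). Between Se_LD and LD the differences were -0.25 for Mt1 (-0.59 to 0.08) and -0.29 for Mt2 (-0.69 to 0.11). Mt3 differed by 0.04 in both comparisons, and Mtf1 by 0.05 and 0.09.

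The difference between the feeds in the response to the high dose was itself tested as an interaction, passed downward by 1.60% of tested genes and in either direction by 2.38%. Mt2 passed, with an interaction of -0.81 ± 0.28 on the log2 scale (SE; 95% interval -1.38 to -0.24), but its limma adjusted p was 0.798. It held the same sign and an unadjusted p below 0.05 when each of the 20 mice involved was left out in turn, from -0.96 to -0.56. Mt1 had an interaction of -0.44 ± 0.23 (SE; 95% interval -0.91 to 0.03; limma adjusted p = 0.997) and did not pass. It passed without HD library 15 (-0.57), HD library 27 (-0.52) or Se_Ctr library 28 (-0.53). For Mt3 the interaction was -0.38 ± 0.18 (SE; 95% interval -0.74 to -0.01; limma adjusted p = 0.997), again without passing the F test. Mtf1 had an interaction of 0.06 ± 0.15. None passed in the corresponding interaction for the low dose, where 1.09% of tested genes did. The HD interaction and the comparisons of HD with Ctr and Se_HD share the HD mice.

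Averaged over the feeds, the high dose was associated with higher Mt2 (0.49 ± 0.14 on the log2 scale, SE; exact permutation p within feeds = 0.0142, limma adjusted p = 0.154) and Mt1 (0.33 ± 0.12; exact permutation p = 0.0202, limma adjusted p = 0.294), where 2.77% of tested genes passed as higher and 4.21% in either direction. Averaged over the doses, Mt2 was lower with selenium by -0.49 ± 0.11 (exact permutation p within doses = 0.000654) and Mt1 by -0.39 ± 0.10 (exact permutation p = 0.00102), both with a limma adjusted p of 0.536. There 1.63% of tested genes passed as lower and 2.30% in either direction. These averages combine differences of unequal size. At the control, low and high dose labels the selenium difference was -0.18, -0.29 and -0.99 for Mt2, and -0.24, -0.25 and -0.68 for Mt1. The HD interaction passed for Mt2 only, with a limma adjusted p of 0.798.

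Ordered by mean, Mt1 and Mt2 both ran HD, LD, Ctr, Se_HD and then the other two selenium groups. The step from HD to LD had an exact permutation p of 0.0159 for Mt2 and 0.0873 for Mt1, and no later neighbours differed beyond their spread (exact permutation p from 0.262 upward). For Mt3 the order was HD, Se_Ctr, Se_LD, LD, Ctr and Se_HD, and the step from HD to Se_Ctr had an exact permutation p of 0.0476. For Mtf1, running from Se_LD at 352 down to Ctr at 317, no neighbours differed (exact permutation p from 0.548 upward). The coefficient of variation of Mt2 was 50.0% in HD and 14.5% to 23.3% in the other groups, but it rested on library 21, without which it was 19.0% in HD. That of Mt3 was lowest in HD, at 3.60%.

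**Figure D3:**
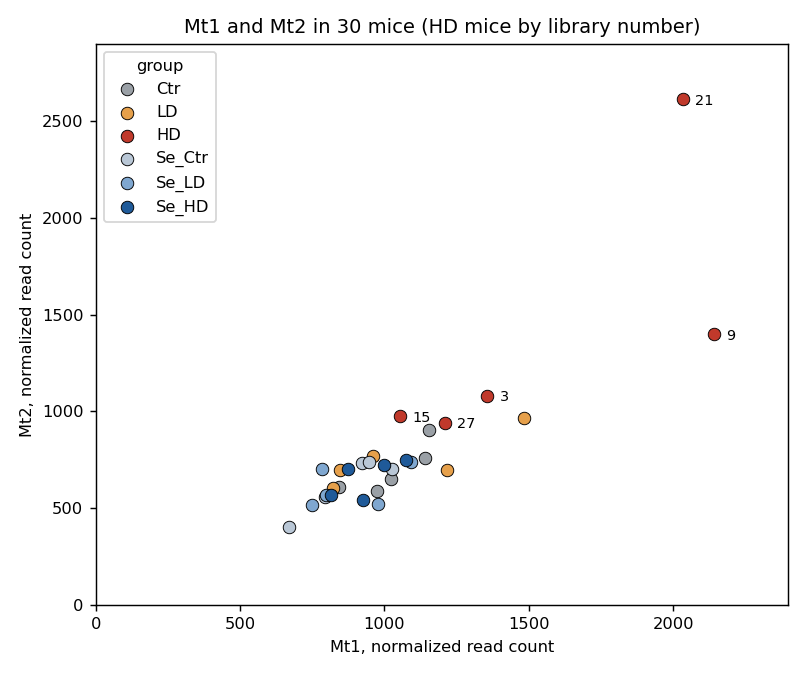
Mt2 against Mt1 in normalized read counts (linear axes from 0), 1 point per mouse and 6 groups by colour, with the HD mice labelled by library number. HD libraries 9 and 21 lie apart, at Mt1 counts of 2141 and 2034, and library 21 has the highest Mt2 count, 2615.

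The pair moved together across mice. Over the 30 libraries the Pearson correlation of Mt1 with Mt2 was 0.88, and 0.75 for the deviations from group means. Mt1 and Mt3 had a correlation of 0.50, Mt2 and Mt3 0.49, and Mtf1 had correlations from -0.18 to -0.08 with the 3 metallothioneins. These values describe libraries that share groups and are given without a test. The ratio of Mt2 to Mt1 was 0.683 ± 0.0707 in Ctr and 0.888 ± 0.242 in HD (SD, n = 5 each). It ran from 0.653 in HD library 9, the mouse with the most Mt1, to 1.29 in library 21, the mouse with the most Mt2. In LD and the 3 selenium groups the mean ratio stayed between 0.701 and 0.716.

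Likeness was measured for 14296 genes averaging 10 or more normalized counts. Mt2 ranked first for Mt1 and Mt1 second for Mt2 (r = 0.88). Leaving the 4 members aside, those most like Mt1 across the 30 libraries were C1qc (r = 0.87), Tsc22d4, Pdlim4, C1qa and Sfpi1, the last at r = 0.82. For Mt2, again without the members, they were C1qc (r = 0.88), C1qa (0.87), Ctss, Col16a1 and Cd68 (0.83). C1qa and C1qc encode chains of complement C1q, Ctss and Cd68 lysosomal proteins of phagocytes, and Sfpi1 the myeloid factor PU.1. C1qc counts in the HD mice were 210, 472, 207, 526 and 130, and the 2 mice with the most C1qc, libraries 9 and 21, were also those with the most Mt1 and Mt2. In Ctr, C1qc ran from 61.3 to 120. The genes most like Mt3 were of another kind, among them Rpl36a (r = 0.84), Csnk2b, Dad1 and Park7 (0.80). Rpl36a encodes a ribosomal protein, a class with many near-identical copies in the genome, so its own count is uncertain. Mtf1 was most like Nup153 (r = 0.69), P4ha1, Thap2, Hspa13 and Atp5g1 (0.65).

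Other genes of metal handling were listed by name and counted in the same tests. Of 7 reported MTF1 targets other than metallothioneins, none passed as higher and 1 as lower in HD against Ctr, with a median log2 difference of 0.01, the same as that of all 20031 genes. Over all genes tested, 3.36% passed as higher and 1.73% as lower, so that counts of 0 or 1 in lists of this size stand near the background. The mean score of the 7 had a correlation of -0.04 with Mt1 and -0.20 with Mt2 over the 30 libraries, but 0.52 and 0.32 for deviations from group means. Slc30a1, the zinc exporter long used as an MTF1 readout, stood at 973 ± 102 normalized counts in Ctr and 992 ± 211 in HD (log2 difference 0.01, limma adjusted p = 0.995). Gclc, the catalytic subunit of glutathione synthesis, stood at 463 ± 27.4 and 482 ± 21.1 (0.06, limma adjusted p = 0.913). The gene that passed was 2700094K13Rik, the older symbol of Selh, a selenoprotein gene. It fell by 0.78 on the log2 scale, from 56.8 ± 10.5 to 34.0 ± 12.9 normalized counts (limma adjusted p = 0.380), and did not pass without HD library 15 or 27. Of 23 zinc transporters 1 passed, as lower. This was Slc30a9, with 1441 ± 87.3 in Ctr and 1200 ± 145 in HD (log2 difference -0.27, limma adjusted p = 0.378), and it did not pass without HD library 15. Of the 23, 1 passed as higher without HD library 3, 15, 21 or 27, and 2 as lower without HD library 9 or 21. The median of the 23 was -0.03 with all HD mice. None of 10 copper handling genes passed (median 0.11). In Se_HD against Se_Ctr none of these 3 lists had a passing gene. In Se_HD against HD, 1 zinc transporter passed as higher, Slc30a9 at 0.32 (limma adjusted p = 0.0999), and 1 as lower, where 0.973% of all tested genes passed as higher and 2.62% as lower.

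Further lists covered other known inducers of Mt1 and Mt2, to be read against the same shares of all genes. Among 16 glucocorticoid-induced genes, 1 passed as higher (Plin4, 1.26 on the log2 scale) and 1 as lower (Tsc22d3, -0.47) in HD against Ctr, with a median of -0.07. Among 17 NRF2 targets, the antioxidant response genes, 4 passed as higher and none as lower, with a median of 0.25. Gstm1, a glutathione transferase, rose by 0.48 (limma adjusted p = 0.0454), and Hmox1, the heme-degrading enzyme, by 1.29 (limma adjusted p = 0.0863). Of 13 genes of the STAT3 and interleukin 6 axis, 7 passed as higher and none as lower, with a median of 0.74. They included the receptor gene Osmr (1.51), the protease inhibitor gene Serpina3n (1.16) and Stat3 itself (0.74). HD library 21 stood far from the other HD mice in these genes, with a summed level of 9966 normalized counts against 3362 to 3968. Without it 4 of the 13 passed, and the differences were 1.1 for Osmr, 0.76 for Serpina3n and 0.44 for Stat3. The list shares 4 genes with the reactive astrocyte markers described next, namely Lcn2, Osmr, Serpina3n and Timp1. In Se_HD against HD, 7 of these 13 and 3 of the 17 NRF2 targets passed as lower, where 2.62% of all tested genes did. Of the 16 glucocorticoid-induced genes 1 also did. In the HD interaction, 5 of the 13 STAT3 genes and 2 of the 17 NRF2 targets passed as lower, where 1.60% of all tested genes did. In Se_HD against Se_Ctr the numbers passing as higher were 1 of 12 and 2 of 17, and 2 of the 16 glucocorticoid-induced genes (median 0.13, Plin4 at 1.01), where 1.28% of all tested genes did. The mean score over the 30 libraries had a correlation of 0.80 with Mt2 and 0.73 with Mt1 for the STAT3 list (0.66 and 0.56 for deviations from group means), 0.71 and 0.66 for the NRF2 list (0.52 and 0.50) and 0.30 and 0.31 for the glucocorticoid list (0.18 and 0.16). These correlations include HD library 21, and no values without it are given. The lists were chosen with results of these data known, and their counts are descriptions.

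**Figure D4:**
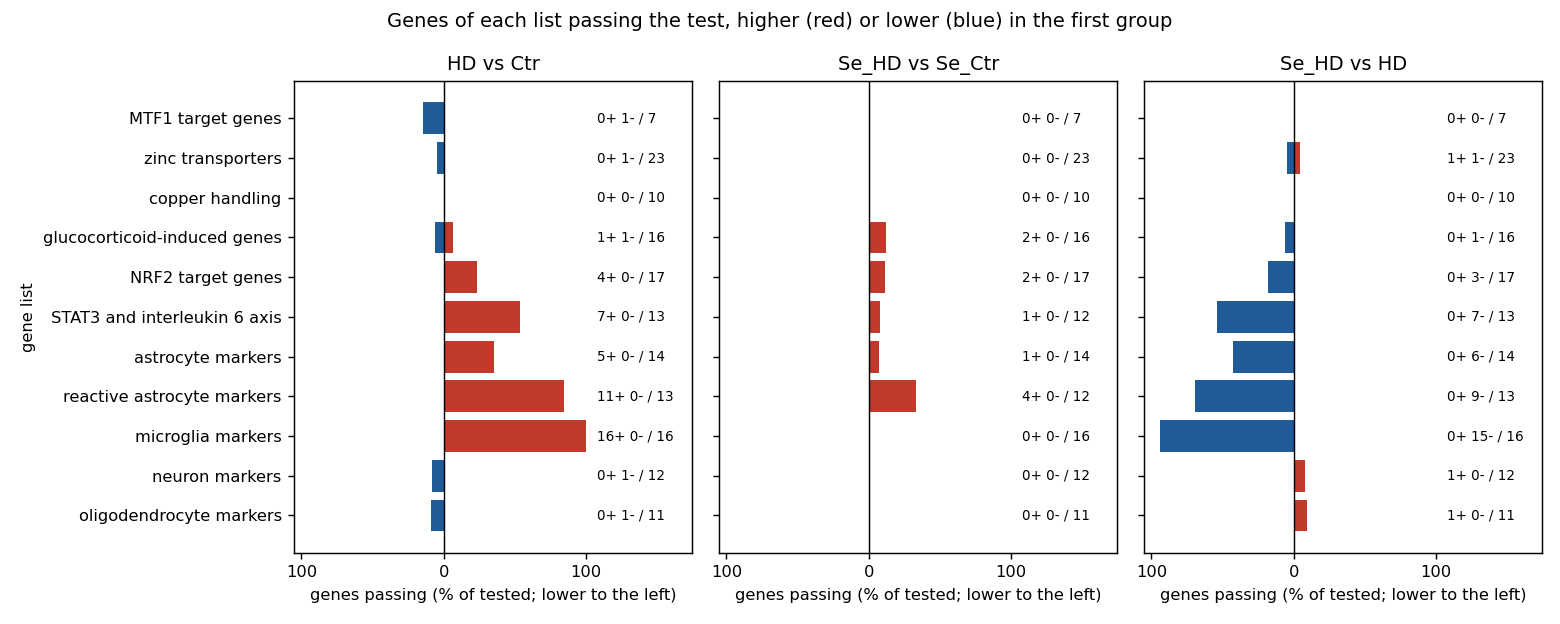
Share of the tested genes of 11 lists that passed (horizontal axis, percent; higher in the first group to the right in red, lower to the left in blue), with the numbers printed as higher, lower and tested. MTF1 targets show 0 of 7 higher in HD against Ctr, while microglia markers show 16 of 16 and reactive astrocyte markers 11 of 13 with all HD mice included.

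Markers of glial cells differed in the comparisons in which Mt1 and Mt2 passed, and some also where they did not. All 16 microglia markers passed as higher in HD against Ctr (3.36% of all genes), with a median log2 difference of 0.97. Their summed level ran from 3593 to 3974 normalized counts in Ctr and from 4678 to 11591 in HD, and from 3821 to 4494 in Se_HD. Of 13 reactive astrocyte markers 11 passed as higher, with a median of 1.32 and a summed level from 2782 to 3435 in Ctr, from 5718 to 45518 in HD and from 3800 to 4734 in Se_HD. The highest HD value was again that of library 21, and the count of 11 fell to 5 without it and to 8 without library 9, while at least 15 of the 16 microglia markers passed with any 1 HD mouse left out. Gfap, the astrocyte filament protein, rose by 2.39 (limma adjusted p = 0.00716), and Tyrobp, a microglial signalling adaptor, by 1.71 (limma adjusted p = 0.00903). General astrocyte markers moved less, with 5 of 14 passing as higher, a median of 0.23 and sums from 82073 to 95193 in Ctr and from 88063 to 102508 in HD. No gene of these 3 lists was at 0 throughout a group. In Se_HD against HD, 15 of 16 microglia, 9 of 13 reactive astrocyte and 6 of 14 astrocyte markers passed as lower, where 2.62% of all tested genes did. In the HD interaction these counts were 15, 4 and 3, where 1.60% of all tested genes passed as lower. Within the selenium feeds, where neither Mt1 nor Mt2 passed, 4 of 12 tested reactive astrocyte markers were higher in Se_HD against Se_Ctr (median 0.43) and 4 of 12 against Se_LD (median 0.37). The counts of microglia markers passing as higher there were 0 and 1 of 16. Of all tested genes, 1.28% passed as higher in Se_HD against Se_Ctr and 2.47% in either direction in Se_HD against Se_LD. Over the 30 libraries the mean score of the microglia markers had a correlation of 0.83 with Mt2 and 0.78 with Mt1, that of the reactive astrocyte markers 0.81 and 0.66, and that of the astrocyte markers 0.68 and 0.59. For deviations from group means these were 0.63 and 0.62 for microglia, 0.66 and 0.40 for reactive astrocyte and 0.20 and 0.099 for astrocyte markers, in the order Mt2 and Mt1. Neuron markers ran the other way, with -0.64 and -0.44 over all libraries and -0.42 and -0.08 for deviations. All these correlations include HD library 21, which stood apart in Mt2 and in the reactive astrocyte sum. No values without it are given. The part of these cells in the Mt1 and Mt2 differences was not tested. In bulk tissue, more cells of a type and more RNA per cell cannot be told apart.

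Markers of tissue next to the hippocampus also varied. Of all tested genes, 3.36% passed as higher and 1.73% as lower in HD against Ctr, so a count of 1 in these lists stands near the background. The 12 choroid plexus markers summed to between 2374 and 43593 normalized counts in Ctr and between 9936 and 44768 in HD. None of them passed, although their median log2 difference was 1.42, and their score had a correlation of 0.02 with Mt1 and 0.03 with Mt2 over the 30 libraries. Of 10 ependymal markers 5 passed as higher in HD, with a median of 0.86 and sums from 127 to 511 in Ctr and from 390 to 588 in HD. Their score had a correlation of 0.20 with Mt1 and 0.19 with Mt2. None of 12 endothelial, 10 pericyte and smooth muscle, 10 meningeal or 6 erythrocyte markers passed in HD against Ctr. In the selenium feeds, however, 5 of 10 meningeal markers passed as higher in Se_HD against Se_Ctr (median 0.72) and 5 of 10 against Se_LD (median 0.99). Against Se_Ctr, 2 of 12 endothelial markers also passed as higher. Of all tested genes, 1.28% passed as higher in Se_HD against Se_Ctr and 2.47% in either direction in Se_HD against Se_LD. The meningeal markers summed to between 2313 and 4961 normalized counts in Se_Ctr and between 5491 and 7766 in Se_HD, and the part of such tissue in the values of the members was not tested. Among 12 neuron and 11 oligodendrocyte markers 1 each passed, as lower, with medians of -0.11 and -0.15. Of the oligodendrocyte markers 4 passed as lower without HD library 3, with a median of -0.23. Of 12 hippocampal subfield markers 1 passed as higher and 1 as lower, and none of 12 thalamus and striatum markers passed. No subfield marker passed without HD library 3 or 21. Of the thalamus and striatum markers 1 passed as higher without HD library 9, 15, 21 or 27.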

How the data were processed

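RNA of individual hippocampus samples (90 ng total RNA, stranded single-end libraries, 75 bases) was sequenced by the authors. Per the labels and methods they trimmed reads with Trim Galore 0.4.2, aligned to NCBIM37 with HISAT2 2.0.4, counted with featureCounts, removed features with fewer than 10 reads in total and normalized with DESeq2 1.18.1. The deposited values are a signal, read counts divided by 1 size factor per library. Dividing each library's values by its smallest step gave whole reads within 0.01 for 100% of values. Library 26 (LD), whose step lies too near 1 to prove a scaling, was not used as recovered reads. Of 21412 identifiers 21326 had a symbol. Files of the mercury-only and selenium groups form 1 table.

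Main tests used limma 3.58.1 (R 4.3.3) with a trend on log2(normalized count + 1), 1 coefficient per group, on genes summing to at least 10. The fits held 15 libraries without selenium, 15 with selenium, or all 30 where feeds were compared (the study's methods describe the 3 groups without selenium). Passing needed an F test and a contrast p below 0.05. Exact permutation tests covered 5 against 5 mice. Motifs were searched with Python 3.11.15. The scripts were tested on simulated data. Alternatives were pseudocounts, filters, quantile and TMM scaling, edgeR 4.0.16 and DESeq2 1.42.0 on recovered reads, no trend, a block on library number, other sets of libraries and leaving out each mouse. TMM, edgeR and DESeq2 fits left out library 26. A limma fit without library 26, and list counts without each HD mouse, were chosen after seeing the data.

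The members and gene lists were chosen with earlier results of these data known. Genes named were the 4 members, the 5 most correlated with each (mean of at least 10; 1 of them is not reported here), up to 3 passing genes per list with the lowest p in HD against Ctr, and Slc30a1 and Gclc. Samples were named by group and library number. Protein sequences were not used here.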

Additional observations from a re-analysis of the deposited data

Results flagged for a closer look

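Among the HD mice, the Mt2 count of library 21 lay apart from the others: the gap between 2615 and the next value, 1398, was 0.727 of the group's range, above Dixon's 95% critical value of 0.71 for 5 samples. HD library 15 was set apart by its depth, the lowest of the group in gene reads, with a gap of 0.821 of the range. Of 30 group and measure combinations examined, these 2 exceeded the critical value, where chance gives 1.5. The response of Mt2 to the high dose differed between the feeds by the interaction test, at -0.81 on the log2 scale. That of Mt3 differed by the interaction contrast alone, at -0.38, without a passing F test over the 6 groups.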

How the results depend on the processing

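In HD against Ctr, Mt2 passed in all 12 other settings (log2 difference 0.89 to 1.00, adjusted p from 0.00409 with DESeq2 to 0.285 with limma without a trend) and with each mouse left out (0.65 to 1.01). It also passed in every setting and leave-one-out fit for Se_HD against HD and for the interaction. Mt1 ranged from 0.43 to 0.68 with a mouse left out in HD against Ctr and from 0.40 to 0.66 in HD against LD, and it lost its call without HD library 9 in each. For Mt3, HD against LD passed at 0.38 with TMM, 0.35 with DESeq2 and 0.38 without library 26 (0.13 to 0.38 with a mouse left out). Se_HD against HD passed for Mt3 at -0.34 with TMM and -0.34 with 2 groups only, and its interaction at -0.39 with TMM. The Mt1 interaction passed at -0.45 with TMM, -0.51 with edgeR and -0.50 with DESeq2 (-0.57 to -0.31 with a mouse left out). In a fit of 2 groups only, Mt1 passed in Se_Ctr against Ctr (-0.24) and Mt2 in Se_LD against LD (-0.29), where the genes passing also went from 278 to 777 and from 156 to 477. The cause of these changes was not tested. The fit of 2 groups only was not run for interactions or averages.

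Signs turned in 32 cases over 9 results, all of them differences that passed in neither setting, with values from -0.10 to 0.12. In the order TMM, edgeR, DESeq2 and limma without library 26, each lacking that library, LD against Ctr gave -0.011, -0.026, -0.022 and -0.0091 for Mt2 and -0.10, -0.094, -0.093 and -0.10 for Mt1. The LD interaction gave -0.019, -0.016, -0.013 and -0.015 for Mtf1, 0.10, 0.093, 0.097 and 0.11 for Mt3, and 0.11, 0.10, 0.11 and 0.12 for Mt1. The LD average over feeds gave -0.017, -0.035, -0.033 and -0.015 for Mt2 and -0.046, -0.040, -0.040 and -0.044 for Mt1. Quantile scaling gave 0.016 for Mt3 in Se_LD against Se_Ctr (TMM 0.0035), 0.027 for the Mt3 LD interaction and 0.0034 for its LD average.

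With a mouse left out, the sign turned within these ranges, none of them passing. For Mt3 they were -0.12 to 0.14 in LD against Ctr, -0.051 to 0.067 in Se_LD against Se_Ctr, -0.075 to 0.13 in Se_Ctr against Ctr, -0.098 to 0.15 in Se_LD against LD, -0.14 to 0.12 in the LD interaction and -0.060 to 0.069 in the LD average. For Mt1 they were -0.10 to 0.11 in LD against Ctr, -0.078 to 0.076 in Se_LD against Se_Ctr, -0.10 to 0.12 in the LD interaction and -0.044 to 0.062 in the LD average. For Mt2 they were -0.0091 to 0.18 in LD against Ctr, -0.17 to 0.046 in Se_LD against Se_Ctr, -0.063 to 0.16 in Se_HD against Se_Ctr and -0.043 to 0.081 in the LD average. For Mtf1 they were -0.020 to 0.10 in HD against Ctr, -0.088 to 0.026 in HD against LD, -0.079 to 0.031 in Se_HD against Se_LD, -0.0092 to 0.11 in Se_Ctr against Ctr, -0.025 to 0.099 in the LD interaction and -0.0057 to 0.12 in the HD interaction.

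The number of passing genes ran from 774 to 1131 in HD against Ctr, from 137 to 388 in LD against Ctr and from 610 to 1383 in Se_HD against HD over the other settings (1019, 292 and 768 as reported, 1131, 213 and 998 with edgeR, and 145 with DESeq2 in LD against Ctr). Without HD library 21, 580 genes passed in HD against LD, against 899 with it. In Se_LD against Se_Ctr 553 passed without Se_LD library 17 and 436 without Se_Ctr library 28, against 288 with them. One fit of all 30 libraries gave 128 there, 221 in Se_HD against Se_Ctr (405 as reported) and 243 in Se_HD against Se_LD (487). The groups share no replicate numbers in the labels, but library numbers run in sets of 6 with 1 library of each group, and a fit with these sets as a block left the Mt2 and Mt1 calls in HD against Ctr in place (adjusted p = 0.114 and 0.337). Depth limits Mtf1 most, at 169 reads in its shallowest library.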
